A study of Mus musculus with 6 samples.

Results

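The DEAD and DEAH box RNA helicases are described here as the 54 genes whose symbol begins with Ddx or Dhx followed by a digit, out of 25899 unique symbols in the deposited table. There were 38 Ddx and 16 Dhx symbols, and none of them was listed more than once. RNA was sequenced from mouse oocytes of aged females (AF). The labels give CD1 females of 58 weeks, primed with pregnant mare serum gonadotropin, whereas the methods of the study name another stock and age, so the age and strain are not settled. Fully grown oocytes were freed of their surrounding cells and cultured for 180 minutes without the inhibitor that keeps them at the germinal vesicle stage. They had then passed nuclear envelope breakdown (NEBD), the first visible step of meiotic maturation. Each sample pooled 200 oocytes, was treated with cycloheximide at 0.1 mg/ml for 10 minutes to hold ribosomes on mRNA, and was spread over a sucrose gradient that was cut into 10 fractions. The fractions were combined into a non-polysomal pool (NP, free RNA and RNA on single ribosomes) and a polysomal pool (P, RNA carried by several ribosomes), with 3 NP and 3 P libraries. Both pools shared the age, the culture and the cycloheximide, and no library of younger oocytes was used here, so the only comparison is P against NP within AF oocytes. The sources do not say which animals gave which replicate, so the p-values below measure only the spread between these libraries.

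RNA helicases of these families use ATP to open short stretches of RNA duplex or to move proteins off RNA. They are named after the amino acids of the motif that binds and cleaves ATP, Asp-Glu-Ala-Asp in DEAD box members and Asp-Glu-Ala-His in DEAH box members. Different members act in splicing, ribosome assembly, export, translation, storage and decay of RNA, and the fully grown oocyte, which makes almost no new transcript, depends on the storage and timed use of mRNA that such proteins handle.

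The motif that gives the family its name could be read directly from the coding sequence of most members. In GENCODE M21 transcripts (GRCm38), a DEAD core placed 60 to 170 codons after the glycine-lysine-serine or glycine-lysine-threonine triplet that binds ATP was found in 26 members, a DEAH core in 8 and a DECD core in 2. The same search over 21504 coding genes found these cores in 0.246%, 0.130% and 0.0186% of genes. The other 18 members held none of the 3 spellings at that distance, among them *Ddx11*, *Ddx24* and *Ddx28*, and *Ddx26b* is a helicase by its older symbol only. The 60 coding bases around the core are shown for the members on which the results below turn, with the 4 codons of the core in capitals.
Ddx3x: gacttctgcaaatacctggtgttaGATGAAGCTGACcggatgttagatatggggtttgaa
Ddx4: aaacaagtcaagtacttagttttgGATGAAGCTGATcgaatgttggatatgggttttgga
Ddx25: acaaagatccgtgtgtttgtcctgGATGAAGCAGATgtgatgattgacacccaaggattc
Ddx39: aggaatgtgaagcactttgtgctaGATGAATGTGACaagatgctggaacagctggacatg
Ddx39b: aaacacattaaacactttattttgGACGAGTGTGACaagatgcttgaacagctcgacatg
Ddx19a: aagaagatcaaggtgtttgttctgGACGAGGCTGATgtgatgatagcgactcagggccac
Ddx19b: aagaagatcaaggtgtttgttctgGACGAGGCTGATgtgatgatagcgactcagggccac
Ddx56: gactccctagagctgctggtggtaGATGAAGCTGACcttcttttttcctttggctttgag
Dhx35: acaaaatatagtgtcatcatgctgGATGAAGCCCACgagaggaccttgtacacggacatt
The windows of *Ddx4* (chr13:112612073-112612132, minus strand), *Ddx25* (chr9:35551311-35551370, minus), *Ddx19a* (chr8:110979062-110979121, minus), *Ddx19b* (chr8:111011311-111011370, minus) and *Ddx56* (chr11:6266535-6266594, minus) each lie in 1 coding exon. Those of *Ddx3x* (chrX:13288930-13289443, plus), *Ddx39* (chr8:83721086-83721738, plus), *Ddx39b* (chr17:35247066-35248955, plus) and *Dhx35* (chr2:158817414-158818310, plus) join 2 coding exons across an intron. *Ddx39* and *Ddx39b* carry the DECD spelling, *Dhx35* the DEAH spelling, and the *Ddx19a* and *Ddx19b* windows are the same letter for letter.

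Depth, estimated from the steps between low values, was 1237064, 18077338 and 12124584 reads in NP and 163641, 1140783 and 1547576 in P, so 3 reads on a transcript of 2 kb were worth 9.17 FPKM (fragments per kilobase of exon and per sequencing depth) in P replicate 1 but 0.0830 in NP replicate 2. In all, 48.7 to 61.7% of the low values came out as whole reads within 0.02, so these depths are estimates, and limits drawn from them cover counting error only. The 13 oocyte markers were all above 0 in some library of each fraction, with summed FPKM of 13190 to 17126 in NP and 5629 to 16772 in P. Among them *Figla* was low, at 1.06, 1.38 and 1.52 FPKM in NP, against 0, 3.46 and 0 in P. Of 10 granulosa and cumulus markers, 4 (*Foxl2*, *Amh*, *Fshr* and *Hsd3b1*) were listed at 0 in every library, and the list summed to 7.85 to 104 FPKM in NP, against 0.152 to 16.5 in P. Nearly all of the NP sum was *Cyp19a1*, the oestrogen-making enzyme of granulosa cells, at 7.15, 22.5 and 104 FPKM, against 15.4, 0 and 0 in P, and its part in the helicase values was not tested. The 5 blood and immune markers in the table were at 0 throughout. In bulk samples, fewer cells of a type and less RNA per cell cannot be told apart.

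Most helicase mRNAs were present in AF oocytes. In NP, 40 of the 54 were above 0 in 3 libraries, 9 in 2, 2 in 1 and 3 in none. In P, the counts were 19, 23, 5 and 7. Over all 25899 genes, 8819 were above 0 in 3 NP libraries and 4664 in 3 P libraries, so the lower number in P was shared with the rest of the table. The NP libraries listed 49, 51 and 40 members above 0 and the P libraries 33, 46 and 29, with the fewest in the P replicates 1 and 3. *Ddx43*, a helicase of germ cells, *Ddx26b* and the Y-linked *Ddx3y* were listed at 0 in all 6 libraries.

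Taken as a share of all FPKM, the family held 0.465, 0.497 and 0.260% in the NP replicates and 0.324, 0.378 and 0.313% in the P replicates, ranges that overlap. One member, *Ddx56*, was the highest of the family in every library, with 33.5, 26.1 and 37.4% of the helicase FPKM in NP, against 20.5, 19.4 and 34.9% in P. The 5 highest members together held 59.99, 66.3 and 80.4% in NP and 57.4, 44.3 and 73.5% in P. A handful of the 54 genes therefore made up most of the helicase FPKM in 5 of the 6 libraries, and P replicate 2 was the most even.

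**Figure D1:**
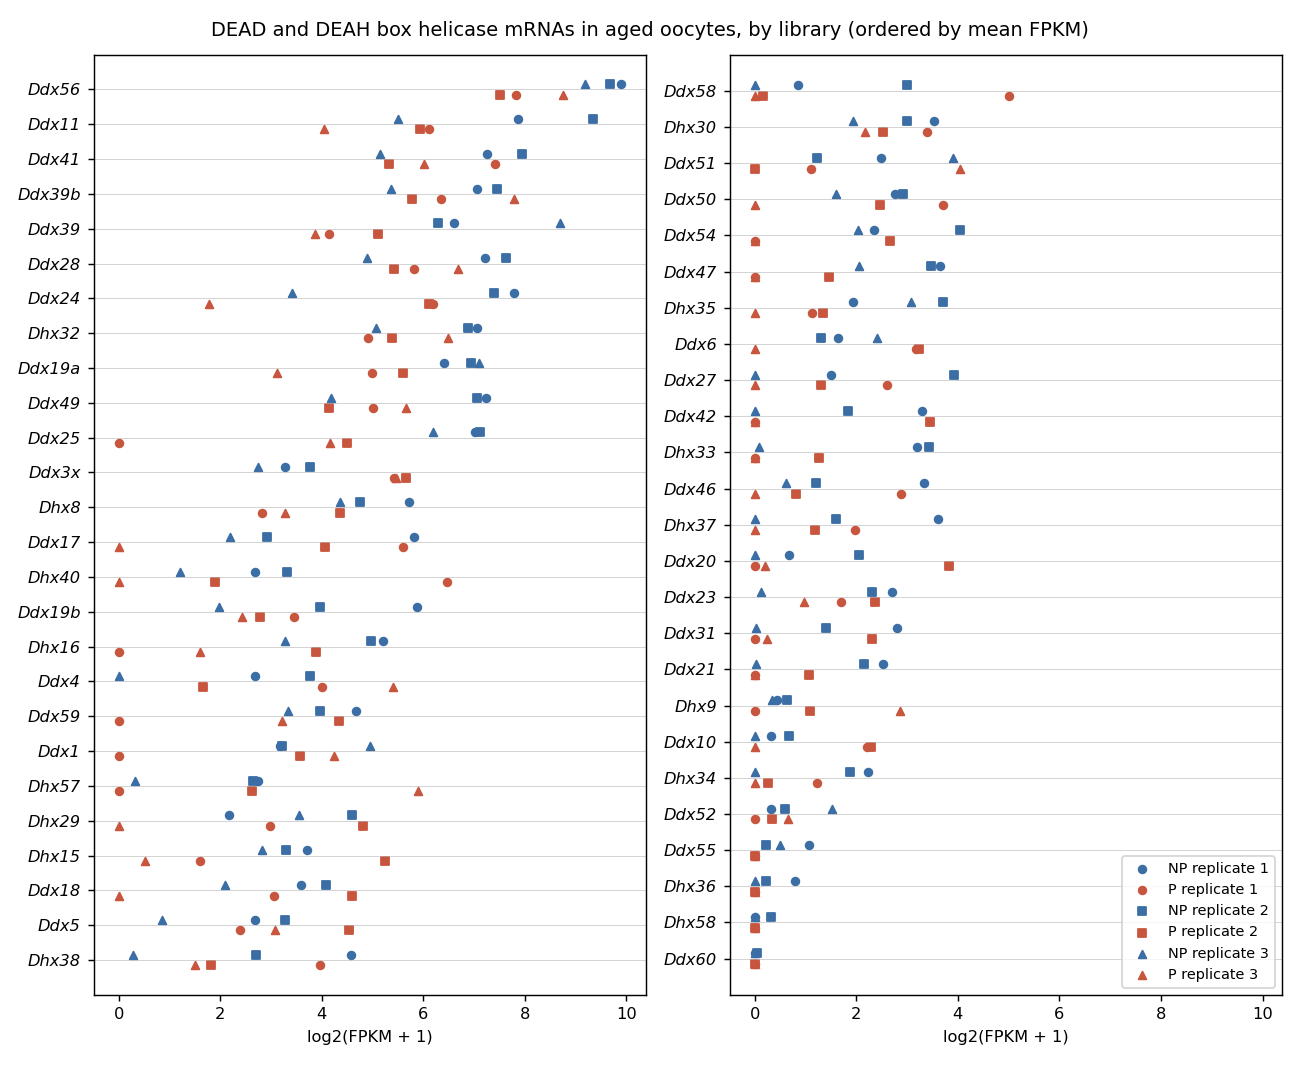
Level of the 51 helicase mRNAs above 0 in any library, as log2(FPKM + 1) on the horizontal axis, 1 gene per line ordered by mean FPKM over both panels, with NP in blue, P in red and the marker shape giving the replicate. *Ddx56* lies farthest to the right in every library, and red points pile up at 0 for P replicates 1 and 3, in which 33 and 29 members were above 0.

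The 46 members with a mean above 1 FPKM in either fraction were compared between P and NP with limma, as the difference of log2(FPKM + 1), which understates the change of low genes. In P, 35 had a lower and 11 a higher level, and their median log2 ratio was -0.69, beside a median of -1.03 and 80.1% lower over all 10578 genes tested. The members' median thus lay 0.34 above that of all genes, a distance that was 0.58 without NP replicate 1, 0.52 without P replicate 3, 0.02 without NP replicate 3, -0.04 without P replicate 1 and -0.0073 with no filter on low values. No member passed an adjusted p of 0.1 in either direction, where the fit called 1.8% of all genes lower and 0.0189% higher. At an unadjusted p under 0.05, 7 members were lower and 1 higher, against 15.5% and 0.293% of all genes. With the replicate number as a block, which treats the NP and P libraries of one number as parts of one gradient, *Ddx25* and *Ddx39* passed as lower and none as higher, where 6.27% of all genes were called lower and 0.0473% higher. The FPKM sums were 246182 to 393876 in P and 597261 to 633110 in NP, and these directions depend on how the libraries are scaled. Rescaling moved the median of all genes from -1.03 to -0.37 (median of ratios), -0.43 (common FPKM sum) and 0.0027 (quantile normalization). The members then had medians of -0.0074, -0.05 and 0.36, with 24, 24 and 16 of 46 lower in P, so the family median turned positive under the last of these. Over all genes the calls went from 2 higher and 190 lower to 2 and 1, 2 and 5, and 2 and 2 in the same order.

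Overlap of the fractions was also counted without a model. All 3 P values lay below all 3 NP values for 6 of the 46 members (*Dhx35*, *Ddx47*, *Ddx39*, *Ddx19a*, *Ddx25* and *Ddx56*), where 23.2% of all genes tested did so. Without NP replicate 3 the count was 17, and without P replicate 2 it was 13. After rescaling it was 2 (median of ratios, *Ddx47* and *Ddx25*), 2 (quantile, the same genes) or 1 (common sum, *Ddx25*). *Dhx35*, *Ddx39*, *Ddx19a* and *Ddx56* thus overlapped between the fractions after each of the 3 rescalings. All P values lay above all NP values for 1 member, *Ddx3x*, where 0.633% of all genes did so. *Ddx3x* kept that place in every setting run, joined by 1 to 4 others without P replicate 1 (*Dhx9*), P replicate 2 (*Ddx4*) or P replicate 3 (*Ddx6* and *Ddx10*), under median-of-ratios scaling (*Dhx30*) and under quantile normalization (*Ddx10*, *Dhx30*, *Ddx5* and *Ddx23*). Within the pairs of equal number, 14 of the 46 tested members were lower in P in 3 of 3 pairs, beside 38.6% of all genes tested, and *Ddx3x* alone was higher in 3 of 3, beside 2.09%. The median rank of the tested members among all tested genes was at the 47.2, 48.5 and 47.7th percentile in the NP replicates and at the 59.9, 63.7 and 55.7th in the P replicates, so the median helicase ranked higher in each P library than in any NP library. Genes tied at 0 ranked at the 21.1, 9.02 and 19.0th percentile in the P replicates, against 8.11 in NP replicate 3. Ranks of genes above 0 therefore also depend on how many genes a library listed at 0. No test was made of the shift in the median rank, or of the part of these ties in it.

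**Figure D2:**
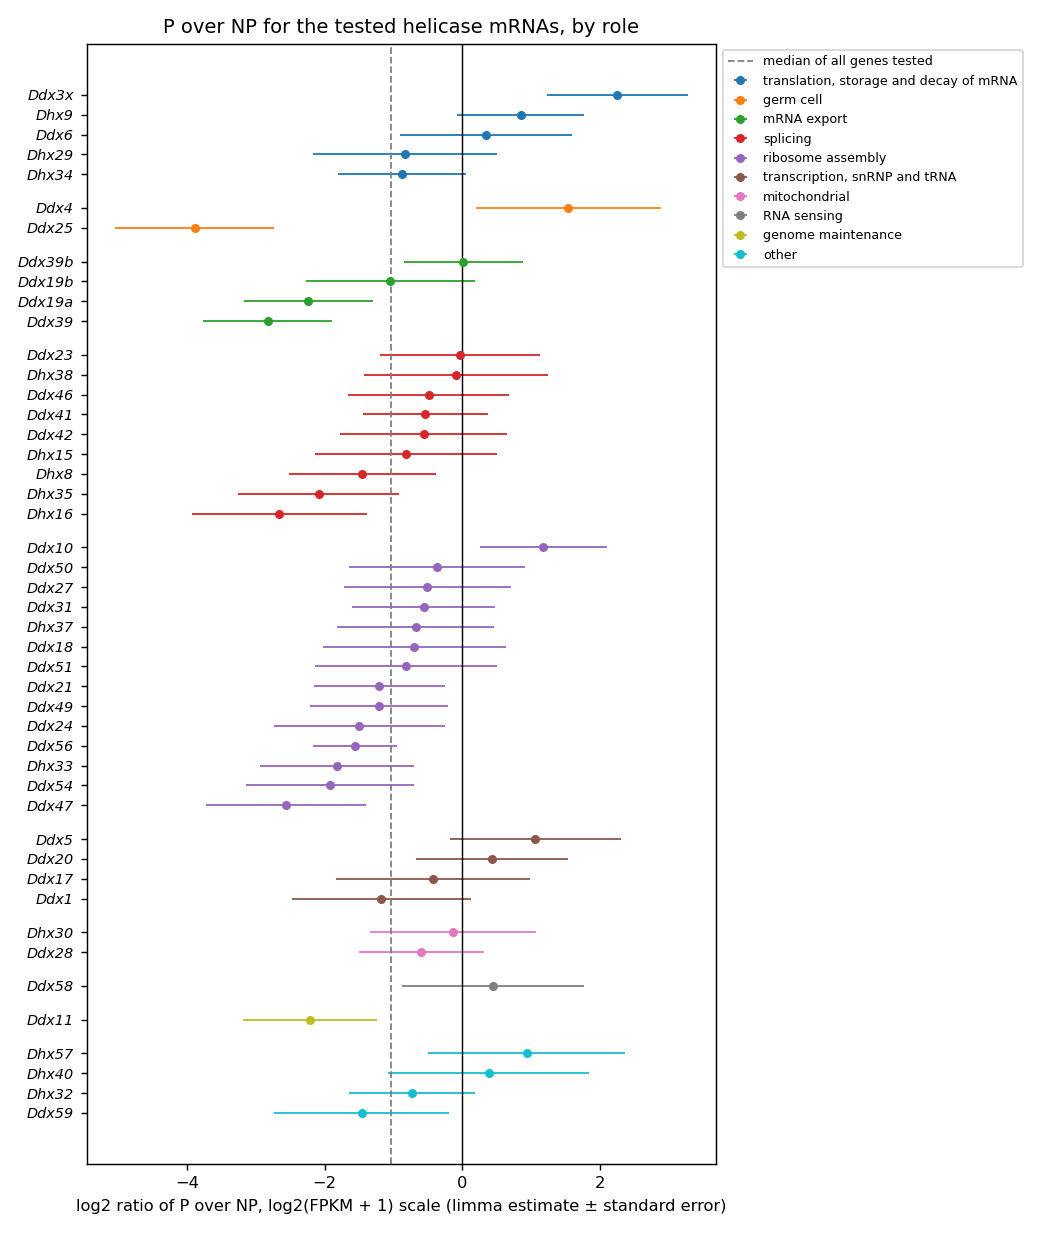
Log2 ratio of P over NP, on the log2(FPKM + 1) scale, for each of the 46 helicases tested, as points with the standard error of the fit as bars, and with the genes grouped and coloured by role. *Ddx3x* is the highest at 2.25 and *Ddx25* the lowest at -3.89, and the zero line is that of the deposited FPKM, on which the median of all genes is -1.03.

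Among the 7 members that act on translation, storage and decay of mRNA, 5 were tested, 2 lower and 3 higher in P (0 and 5 after quantile normalization). Their median log2 ratio was 0.35, beside -1.03 and 80.1% lower for all genes. *Ddx3x* (chrX:13280970-13294052), which helps ribosomes start on mRNAs with structured leaders, was at 8.73, 12.6 and 5.72 FPKM in the NP replicates, against 41.6, 49.6 and 43.2 FPKM in the P replicates. The 3 P libraries sat close together, and each was above the highest NP library. Its mean was 9.01 ± 3.44 FPKM in NP, against 44.8 ± 4.24 in P (SD, n = 3), a ratio of means of 4.98. The log2 ratio was 2.25 (SE 1.02, 95% confidence interval 0.13 to 4.37), or 3.28 above the median of all tested genes, and it missed the threshold with limma (adjusted p = 0.291, and 0.209 with the replicate block). Over the alternatives the ratio ran from 1.86 to 3.47 and its adjusted p from 0.209 to 0.533. On scales that a scaling factor for a library does not alter, *Ddx3x* held 0.307, 0.40 and 0.369% of the helicase FPKM in NP, against 3.76, 5.34 and 3.50% in P. Its percentile among the tested genes was 46.7, 53.5 and 54.8 in NP and 86.4, 90.6 and 87.1 in P. These ranks also depend on how many genes were tied at 0. An exact permutation test of 3 libraries against 3, which was not run, cannot go below p = 0.1 for a single gene. The limma p of *Ddx3x* before adjustment was 0.0388, and 0.0328 with the replicate block.

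The other members of this group did not separate in the same way. *Ddx6*, which holds stored mRNA in a silent state and helps decay it, was at 2.13, 1.49 and 4.29 FPKM in NP, against 8.05, 8.38 and 0 in P. *Dhx29*, which assists the scanning ribosome, was at 3.48, 23.3 and 10.7 FPKM in NP, against 6.93, 27.2 and 0 in P. Both were listed at 0 in P replicate 3 and overlapped between the fractions, with log2 ratios of 0.35 (SE 1.25) and -0.84 (SE 1.34). The sign for *Ddx6* turned without either of the other P libraries and with a pseudocount of 0.1, and that for *Dhx29* turned without P replicate 3 and under quantile normalization. *Dhx9*, an RNA and DNA helicase with many nuclear and cytoplasmic targets, was at 0.350, 0.563 and 0.268 FPKM in NP, against 0, 1.14 and 6.29 in P, so 1 library carried its higher P mean. *Dhx36*, which unwinds G-quadruplexes, was at 0.736, 0.164 and 0 FPKM in NP and listed at 0 in P, below the level needed for a test. *Dhx34* was at 3.69, 2.68 and 0 FPKM in NP, against 1.33, 0.191 and 0 in P (log2 ratio -0.88, SE 0.93).

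Of the 3 germ cell helicases, *Ddx25* was lower in P in every library, and *Ddx4* overlapped between the fractions. *Ddx25* (chr9:35541848-35558470), known from the testis as a regulator of mRNA export and translation in spermatids, was at 129, 138 and 71.9 FPKM in NP, against 0, 21.4 and 17.0 in P. Each P value lay below each NP value, with a mean of 113 ± 35.8 FPKM in NP, against 12.8 ± 11.3 in P (SD, n = 3). Its log2 ratio was -3.89 (SE 1.15, 95% confidence interval -6.28 to -1.50), or -2.86 once the median of all genes is subtracted. With limma it missed the threshold (adjusted p = 0.114), passed it with the replicate block (adjusted p = 0.0427) and passed without P replicate 3 (log2 ratio -4.53, adjusted p = 0.0448). Without P replicate 1, the library listed at 0, the limma log2 ratio was -2.45 (adjusted p = 0.272). *Ddx25* was then no longer the lowest member, with *Ddx39* (-2.71) and *Ddx19a* (-2.4508, against -2.4479 for *Ddx25*) among those below it. After median-of-ratios, common-sum and quantile rescaling the log2 ratio of *Ddx25* was -2.94, -3.13 and -2.79, with limma adjusted p of 0.614, 0.614 and 0.65. With a pseudocount of 0.1 the log2 ratio was -5.03 (limma adjusted p = 0.204). As a share of the helicase FPKM it held 4.53, 4.39 and 4.64% in NP, nearly the same in 3 libraries, and 0, 2.31 and 1.38% in P. The deposited span of *Ddx25* covers 1675 of its 6934 exon bases in GENCODE M21. If reads were counted over those bases alone, 3 reads at the estimated depth of P replicate 1 would be worth 10.9 FPKM, so the 0 there allows a level of up to about that value.

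*Ddx4*, the Vasa helicase that marks germ cells and works with the piRNA machinery, was at 5.39, 12.5 and 0 FPKM in NP, against 14.998, 2.15 and 41.2 in P. The fractions overlapped, with the highest value in P replicate 3 and the 0 in the NP library of the same number. Its log2 ratio was 1.54 (SE 1.34, limma adjusted p = 0.536), and with each library left out in turn it ran from 0.47, without NP replicate 3 and its 0, to 2.56, without P replicate 2. Both genes overlapped in P, and in NP every *Ddx25* value was above every *Ddx4* value.

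**Figure D3:**
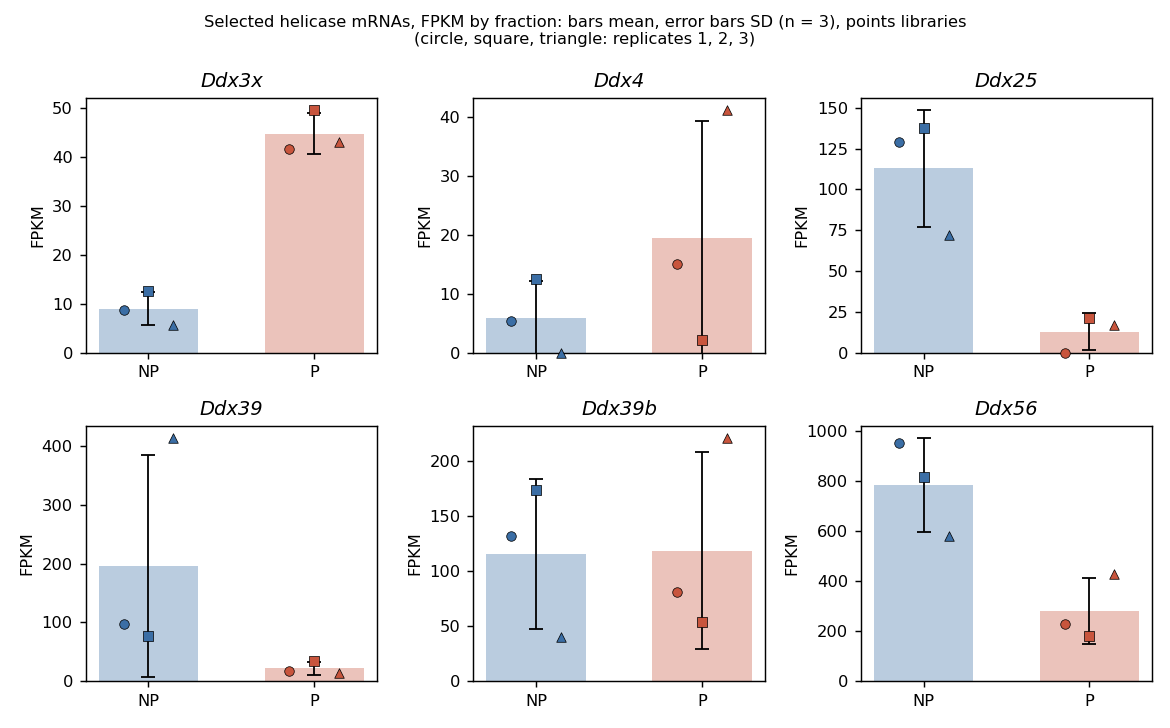
FPKM of *Ddx3x*, *Ddx4*, *Ddx25*, *Ddx39*, *Ddx39b* and *Ddx56* in NP and P, with 1 point per library, the bar at the mean, the SD as error bars (cut at 0) and each panel on its own axis from 0. The P points of *Ddx3x* (41.6 to 49.6) all lie above its NP points, those of *Ddx25*, *Ddx39* and *Ddx56* all lie below, and *Ddx4* and *Ddx39b* overlap.

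Of the 4 mRNA export helicases, 3 were lower and 1 was higher in P, a split that the 3 rescalings did not alter. The median log2 ratio was -1.64 on the deposited scale, beside -1.03 and 80.1% lower for all genes, and -0.70, -0.77 and -0.54 after median-of-ratios, common-sum and quantile rescaling. *Ddx39* (chr8:83715177-83726892), which loads export factors onto spliced mRNA, was at 96.9, 77.0 and 414 FPKM in NP, against 16.6, 33.5 and 13.6 in P. On the deposited scale every P value lay below every NP value, and NP replicate 3 stood far above the other 2 NP libraries. The log2 ratio was -2.83 (SE 0.94, 95% confidence interval -4.77 to -0.88), or -1.79 relative to all genes, with an adjusted p from limma of 0.161 and of 0.0915 with the replicate block. Over the alternatives its adjusted p from limma ran from 0.0915 to 0.699. After median-of-ratios, common-sum and quantile rescaling its log2 ratio was -1.85, -1.91 and -1.64, and the fractions overlapped. Without NP replicate 3 the log2 ratio was -2.08. Exons of *Ddx39* overlap those of *Adgre5* on the other strand over 17.4% of their length, and the strand setting of the counting is not known.

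*Ddx39b* is the close relative of *Ddx39* with a part in the same export step. It was at 132, 174 and 40.4 FPKM in NP, against 80.7, 53.7 and 221 in P, overlapping ranges with a log2 ratio of 0.01 (SE 0.87). After median-of-ratios, quantile and common-sum rescaling the log2 ratio was 1.01, 0.90 and 0.94 (limma adjusted p = 0.715, 0.748 and 0.765), and it was -0.61 without NP replicate 3. The ratio of *Ddx39* to *Ddx39b* was 0.733, 0.443 and 10.2 in NP and 0.205, 0.623 and 0.0618 in P, so *Ddx39* exceeded *Ddx39b* in NP replicate 3 only. Their coding sequences are 81.2% identical over 1280 aligned bases and share no run longer than 26 bases. No 50-base stretch is common to both, and how reads were divided between the pair was not tested.

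*Ddx19a* and *Ddx19b*, which release export factors at the nuclear pore, are a pair of a different kind. They lie next to each other on chromosome 8, 5387 bases apart, with coding sequences 93.2% identical, a shared run of 275 bases and 48.7% of the 50-base stretches of *Ddx19a* present in *Ddx19b*. *Ddx19a* was at 83.3, 121 and 136 FPKM in NP, against 31.0, 47.7 and 7.64 in P. *Ddx19b* was at 57.4, 14.6 and 2.91 FPKM in NP, against 9.96, 5.85 and 4.40 in P. On the deposited scale *Ddx19a* was therefore lower in every P library than in any NP library (log2 ratio -2.24, SE 0.94, limma adjusted p = 0.259). *Ddx19b* overlapped (-1.04, SE 1.23), and its log2 ratio ran from -2.03 to -0.08 with each library left out. After median-of-ratios, common-sum and quantile rescaling *Ddx19a* overlapped too. The log2 ratios were then -1.27, -1.32 and -1.03 for *Ddx19a* and -0.13, -0.22 and -0.05 for *Ddx19b*. How reads in the shared stretches were divided is not known, so each single value is uncertain. The sum of both was 141, 136 and 139 FPKM in NP, against 40.9, 53.5 and 12.04 in P, a narrower range in NP than that of either gene, while the ratio of *Ddx19a* to *Ddx19b* ran from 1.45 to 46.8.

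The largest role group was ribosome assembly, with 16 members, of which 14 were tested. On the deposited scale 13 were lower and 1 was higher in P, with 10, 10 and 7 lower after median-of-ratios, common-sum and quantile rescaling, and the median was -1.02 beside -1.03 for all genes. Of the 14, 6 were lower in P in 3 of 3 pairs, beside the 38.6% of all genes tested. *Ddx56* (chr11:6258919-6267772), a nucleolar helicase of the large subunit, was at 952, 819 and 580.0 FPKM in NP, against 227, 180.2 and 430.1 in P. On the deposited scale the fractions did not overlap, and P replicate 3 came nearest to NP. The means were 784 ± 189 FPKM in NP, against 279 ± 133 in P (SD, n = 3), with a log2 ratio of -1.56 (SE 0.61, adjusted p = 0.228 with limma), or -0.53 relative to all genes. After median-of-ratios, common-sum and quantile rescaling the fractions overlapped, with log2 ratios of -0.56, -0.63 and -0.58. *Ddx24*, another nucleolar helicase, was at 219, 167 and 9.58 FPKM in NP, against 71.5, 68.5 and 2.45 in P, so the replicates of number 3 were low in both fractions. *Ddx47*, of the small subunit, was at 11.6, 10.1 and 3.13 FPKM in NP, against 0, 1.77 and 0 in P. These did not overlap (log2 ratio -2.57, SE 1.16, limma adjusted p = 0.29), although the fractions did so after common-sum rescaling. *Ddx31*, a nucleolar helicase, was at 5.94, 1.66 and 0.0233 FPKM in NP, against 0, 3.97 and 0.183 in P, with its P mean almost wholly from replicate 2. *Ddx10* was the single member of the group higher in P, at 0.240, 0.591 and 0 FPKM in NP, against 3.62, 3.90 and 0 in P (log2 ratio 1.17, SE 0.92). Its P values amount to about 2, 14 and 0 reads at the estimated depths, although the values above 0 did not come out whole, and 3 reads in P replicate 1 would be worth 5.86 FPKM, above the 3.62 listed there. The 0 in P replicate 3 overlaps the NP range. *Ddx10*, *Ddx31* and the splicing helicase *Dhx35* are on the study's list of genes that differ by age between polysomal libraries, drawn in part from these same P libraries. That age difference was not examined here, and the list says nothing of P against NP.

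All 9 splicing helicases were tested, and on the deposited scale 9 had a negative log2 ratio, with a median of -0.56 beside -1.03 for all genes. After rescaling 5 (median of ratios), 5 (common sum) and 3 (quantile) of them were lower in P. *Ddx41*, which acts in the spliceosome and in sensing of nucleic acids, was at 152, 245 and 34.4 FPKM in NP, against 169, 38.9 and 63.5 in P. It was the most abundant of the group and its fractions overlapped, and 17.4% of its exon length lies opposite another gene. *Dhx16*, which remodels the spliceosome before the first step of splicing, was at 35.9, 30.3 and 8.72 FPKM in NP, against 0, 13.7 and 2.05 in P. The log2 ratio was -2.66 (SE 1.27, limma adjusted p = 0.313), and P replicate 2 overlapped NP replicate 3. *Dhx35*, a component of the catalytic spliceosome, was at 2.81, 12.01 and 7.48 FPKM in NP, against 1.18, 1.52 and 0 in P. That separation rests on 1, 9 and 0 estimated reads in the P libraries (log2 ratio -2.09, SE 1.17, limma adjusted p = 0.384). After median-of-ratios, common-sum and quantile rescaling the fractions overlapped, with log2 ratios of -1.53, -1.47 and -0.98.

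The 4 helicases of transcription, small nuclear ribonucleoproteins and tRNA had 2 lower and 2 higher levels in P (1 and 3, 1 and 3, and 0 and 4 after median-of-ratios, common-sum and quantile rescaling). *Ddx5*, a co-regulator of transcription and of microRNA processing, was at 5.46, 8.69 and 0.814 FPKM in NP, against 4.23, 22.3 and 7.49 in P. Its relative *Ddx17* was at 55.3, 6.55 and 3.58 FPKM in NP, against 47.4, 15.6 and 0 in P. The replicates of number 1 were high for *Ddx17* in both fractions, and neither gene separated the fractions. *Ddx20*, which belongs to the SMN complex that assembles small nuclear ribonucleoproteins, was at 0.585, 3.16 and 0 FPKM in NP, against 0, 13.1 and 0.156 in P, so 98.8% of its P sum lay in 1 library.

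Further members were abundant without separating the fractions, or lay near the limit of detection. *Ddx11*, a DNA helicase of sister chromatid cohesion, was at 233, 649 and 44.5 FPKM in NP, against 67.7, 59.96 and 15.6 in P. It was lower in P in 3 of 3 pairs, although P replicates 1 and 2 exceeded NP replicate 3 (log2 ratio -2.21, SE 0.97, limma adjusted p = 0.281). *Ddx28*, which helps assemble the mitochondrial ribosome, was at 148, 196 and 28.5 FPKM in NP, against 55.5, 42.1 and 102 in P. *Dhx32*, whose role is less well known, was at 131, 116 and 32.4 FPKM in NP, against 29.3, 40.9 and 88.9 in P. In both the replicates of number 3 ran against the other 2 pairs, with log2 ratios of -0.59 (SE 0.91) and -0.73 (SE 0.91) that turned positive under each of the 3 rescalings. Of the 3 RNA sensors of innate immunity, *Dhx58* and *Ddx60* were above 0 in 1 NP library each and at 0 in all P libraries.

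The share of members whose P level came from 1 library was close to that of all genes. Of the 41 members with a mean above 1 FPKM in P, 9 (22.0%) had over 90% of their P sum in a single library, beside 23.1% of 8009 genes, and in NP 0 of 44 did, beside 9.36% of 10015 genes. The top library was P replicate 2 for 5 of the 9 (*Ddx31*, *Ddx20*, *Dhx15*, *Ddx54* and *Ddx42*), P replicate 1 for 2 (*Ddx58* and *Dhx40*) and P replicate 3 for 2 (*Ddx51* and *Dhx57*). *Ddx58*, a sensor of viral RNA, was at 31.2, 0.124 and 0 FPKM in P. *Dhx40* was at 87.6, 2.72 and 0 FPKM, and *Dhx57* at 0, 5.18 and 58.2 FPKM. These 3 were chosen with their values in view. Without the top library the P mean of *Dhx40* dropped from 30.1 to 1.36 FPKM and that of *Dhx57* from 21.1 to 2.59 FPKM. *Ddx3x* lay at the other end, with 36.9% of its P sum in its top library, the lowest share of the 41. Estimated depths were 163641 to 1547576 reads in P against 1237064 to 18077338 in NP, and the part of depth in these single-library values was not tested.

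**Figure D4:**
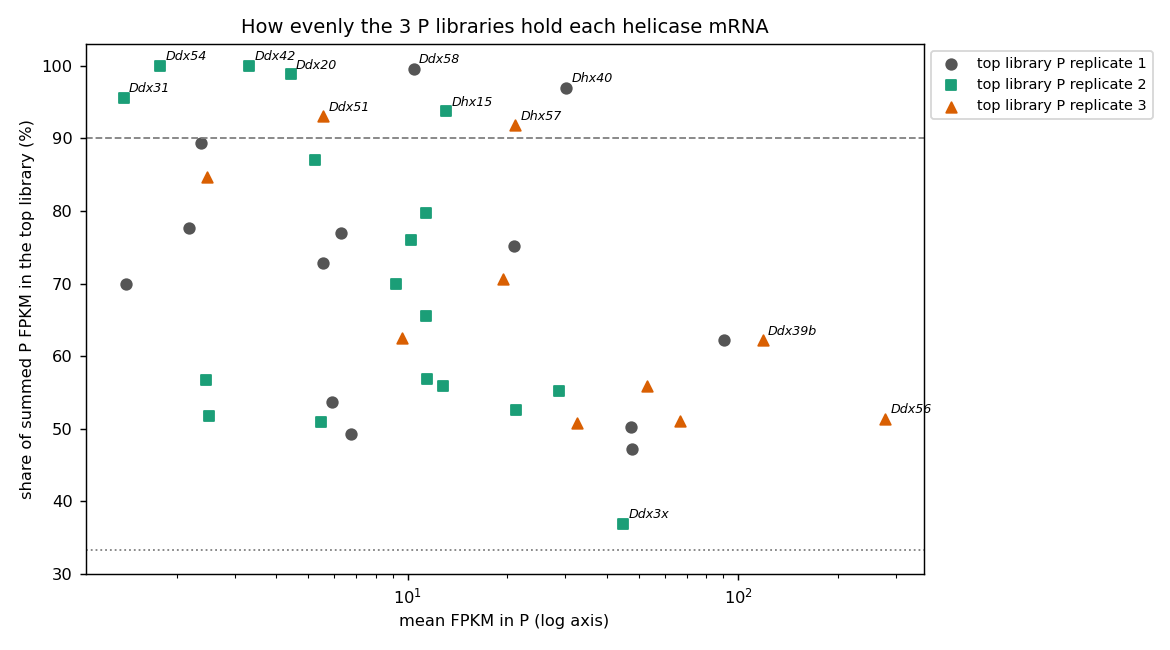
Share of the summed P FPKM that fell in the top library, in percent, against the mean P FPKM on a log axis, for the 41 helicases with a mean above 1 FPKM in P, with the colour and shape showing which P library was the top one. The dashed line is at 90%, passed by 9 members, and *Ddx3x* is lowest at 36.9%, near the dotted line of an even split.

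In maturing oocytes, cytoplasmic polyadenylation elements near the 3′ end of an mRNA are known to direct when it is translated. The hexamer TTTTAT, a common form of that element, was searched on the sense strand in the last 100 bases of the GENCODE M21 transcripts, and found in 11 of the 52 members with such a window (21.2%), beside 2632 of 19071 coding genes (13.8%). The holders are *Ddx3x*, *Ddx4*, *Ddx25*, *Ddx18*, *Dhx35*, *Dhx36*, *Ddx47*, *Ddx43*, *Ddx50*, *Ddx1* and *Ddx26b*. *Ddx39*, *Ddx39b*, *Ddx56*, *Ddx19a* and *Ddx19b*, also described above, do not hold it. The sites of *Ddx3x*, *Ddx4* and *Ddx25* are shown, with the hexamer in capitals, as 3 of the holders described above.
Ddx3x: tggTTTTATtaaaataaaaag
Ddx4: acaaatgtttgcTTTTATaatatacagatt
Ddx25: agatattaacctTTTTATtgaaaa
The sites lie in the 3′ untranslated regions at chrX:13293953-13293973 (plus strand), chr13:112598371-112598400 (minus) and chr9:35536647-35536670 (minus). That of *Ddx25* is outside the gene span in the deposited table, which ends at 35541848 on that side. A match is a description of the letters and not evidence of a working element. On the deposited scale the log2 ratio was above 0 for *Ddx3x* and *Ddx4*. It was below 0 for *Ddx25* and the other tested holders (*Ddx18*, *Dhx35*, *Ddx47*, *Ddx50* and *Ddx1*), where 80.1% of all genes were lower.

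RNA helicases whose symbols are not Ddx or Dhx were read from the same fit. Of 23 in the table, 18 were tested, 11 lower and 7 higher in P on the deposited scale. The median log2 ratio was -0.20, beside -1.03 and 80.1% lower for all genes. Limma called 0 of them in either direction, with and without the block, and 2 (11.1%, beside 15.5% of all genes) were lower at an unadjusted p under 0.05. *Eif4a3*, the helicase of the exon junction complex, was at 541, 431 and 291 FPKM in NP, against 245, 194 and 137 in P, lower in every P library. Its log2 ratio was -1.13 (SE 0.66, limma adjusted p = 0.402), beside the median of -1.03 for all genes. *Supv3l1*, of mitochondrial RNA decay, was at 234, 199 and 118 FPKM in NP, against 26.7, 72.6 and 53.0 in P, also without overlap (log2 ratio -1.89, SE 0.82, limma adjusted p = 0.279). *Eif4a1*, which unwinds mRNA leaders for translation initiation, was at 89.3, 51.2 and 106 FPKM in NP, against 132, 24.3 and 126 in P, and overlapped (log2 ratio -0.08, SE 0.89). Of 46 genes for partners of the helicases, 39 were tested, 36 lower and 3 higher on the deposited scale, where 80.1% of all genes were lower, with a median of -0.93 beside -1.03 for all genes. Limma called 0 of these without the block, where 5 (12.8%, beside 15.5% of all genes) were lower at an unadjusted p under 0.05, and 1 (2.56%, beside 6.27%), *Gemin6* of the SMN complex, with it (14.7, 29.4 and 1.39 FPKM in NP, against 0 in each P library, adjusted p = 0.083).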

How the data were processed

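The 6 libraries were made from sucrose gradients of AF oocytes by depletion of rRNA, whole transcriptome amplification and Nextera library preparation. According to the labels and the methods of the study, the authors used Trim Galore 0.4.1 for trimming and HISAT2 2.0.5 for mapping to GRCm38. They computed FPKM per gene in Seqmonk and deposited these values, 1 column per library and unpooled. FastQC 0.11.5 is also listed in the processing notes. Which annotation release was used, whether strand was counted and how reads were filtered is not given in the sources used here. A further 2 columns of group means were not used.

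The table holds 25965 rows. For a repeated symbol the row with the highest mean was kept (66 rows dropped). Exon lengths of GENCODE M21 were matched by symbol for 22637 genes (87.4%). Depth was estimated from the step that turned the largest share of low values into whole reads, taking the lowest depth within 90% of the best share. Sequences were read from the GENCODE M21 transcripts.

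The fractions were compared on log2(FPKM + 1) with limma (version 3.58.1, R 4.3.3), letting the spread follow a trend with the level. Genes with a mean above 1 FPKM in either fraction were tested, two-sided, with Benjamini-Hochberg adjustment over all of them and a threshold of 0.1. The fit was tested on simulated data for this comparison, in which 200 genes differed by 2 on the log2 scale. All 200 were recovered, with 17 false calls among 8888 genes, when the noise SD was 0.3 (log2). At the noise of the real libraries (median residual SD 1.22) 5 were recovered, with 0 false calls among 10033 genes.

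For the pairing, deviations from the fraction means correlated at 0.063, 0.099 and 0.116 for NP and P libraries of the same number and at -0.089 to 0.021 for the others. Each gradient gave both an NP and a P pool, so equal numbers are read as the same gradient, which no source states in words. The comparison was made without the block, and the block was an alternative, with other pseudocounts, filters and scalings, no trend and each library left out in turn.

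The members, role lists, partner and marker lists were chosen with earlier results of these data known. Values in every library are given for members past the threshold with or without the block, the 5 with the highest mean in each fraction, the 4 with the largest log2 ratio in each direction, 10 members known from germ cells, mRNA storage or translation, 3 pairs of close relatives and 3 members the study selected. Among helicases with other names, the 3 with the highest mean are named. *Gemin6* is named as the single partner past the threshold, and *Ddx58*, *Dhx40*, *Dhx57*, *Dhx58* and *Ddx60*, the other members with single-library P values, *Dhx34*, *Cyp19a1* and *Figla* after their values were seen. Summaries and plots were made in Python 3.11.15 with pandas 2.3.3.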

Additional observations from a re-analysis of the deposited data

How the results depend on the processing

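Fits were repeated with 1 choice altered at a time. The number of genes past the threshold, 192 of 10578, was 69 with a pseudocount of 0.1, 15 without the trend, 3 after median-of-ratios scaling, 4 after quantile normalization, 7 after scaling to a common sum and 0 without the filter (1759 at an unadjusted p under 0.05), and it ran from 1 to 331 with each library left out. With the replicate block, which assumes the pairing of equal numbers, it was 668, and 2 members passed (*Ddx25* and *Ddx39*) in place of 0. With each library left out, 0 to 1 members passed.

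The count of members with all P below all NP, 6, was 2 after median-of-ratios scaling, 2 after quantile normalization and 1 after scaling to a common sum, and ran from 6 to 17 with each library left out. The pseudocount, the trend and the block cannot alter that count. The median log2 ratio of the members turned to 0.36 after quantile normalization and ran from -1.32 to -0.37 with each library left out. The cause of these shifts was not tested.

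Of 355 values for 24 named members under 15 alternatives, 325 kept their direction and their side of the threshold, 3 newly passed (*Ddx25* with the block and without P replicate 3, *Ddx39* with the block) and 27, from 9 members, turned in sign. None of these 9 had passed the threshold. After median-of-ratios scaling the log2 ratio was 0.011 for *Ddx31*, 0.26 for *Dhx32*, 0.40 for *Ddx28*, 0.46 for *Ddx41* and 0.26 for *Ddx17*. After quantile normalization it was 0.69 for *Ddx31*, 0.15 for *Dhx32*, 0.25 for *Ddx28*, 0.33 for *Ddx41*, 0.35 for *Dhx29* and 0.65 for *Ddx17*. After scaling to a common sum it was 0.19 for *Dhx32*, 0.33 for *Ddx28*, 0.39 for *Ddx41* and 0.36 for *Ddx17*. With a pseudocount of 0.1, *Ddx6* was at -0.39. With each library left out, the log2 ratio ran from -1.29 to 0.13 for *Ddx31*, -0.80 to 1.11 for *Ddx20*, -0.20 to 1.42 for *Ddx6*, -1.35 to 0.045 for *Ddx41*, -1.95 to 0.46 for *Dhx29*, -1.61 to 1.18 for *Ddx17* and -0.61 to 0.45 for *Ddx39b*.

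Depth limits the low members most, since 3 reads on 2 kb were worth 9.17 FPKM in P replicate 1. In the simulation, which gave every gene the median spread of these libraries, most single-gene changes of 4-fold were missed. The standard error differed between genes, at 0.61 for *Ddx56* and 1.02 for *Ddx3x*, and the simulation did not follow such differences. A p above the threshold does not show that the fractions were alike.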

Other observations

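Several members that fall outside the rule for named genes were looked at after their values were seen. *Ddx49*, a helicase of ribosome assembly, had 149.5, 132 and 17.1 FPKM in NP, against 31.3, 16.8 and 49.6 FPKM in P, so the replicates of number 3 ran against the other pairs, as for *Ddx28* and *Dhx32*. Its exons overlap those of *Homer3* on the opposite strand over 29.8% of their length. *Dhx8*, which releases spliced mRNA from the spliceosome, had 51.9, 25.8 and 19.5 FPKM in NP, against 6.07, 19.5 and 8.72 FPKM in P, with the lowest NP and the highest P library nearly equal. *Dhx30*, a helicase of the mitochondrial ribosome, overlapped closely between the fractions, with 10.5, 7.04 and 2.82 FPKM in NP and 9.495, 4.72 and 3.48 FPKM in P.

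*Ddx21* and *Ddx50* are nucleolar relatives that lie 13724 bases apart on chromosome 10, and their P values overlapped. *Ddx21* had 4.77, 3.43 and 0.0174 FPKM in NP, against 0, 1.11 and 0 FPKM in P. *Ddx50* had 5.75, 6.54 and 2.02 FPKM in NP, against 12.1, 4.51 and 0 FPKM in P. The difference between the pair was not tested.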
